A study of Mus musculus with 27 samples.

Results

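The expression of the mitochondrial genome was followed through gestation (d12, d15 and d17) in the whole brain of fetal mice of 3 strains, AKR/J, C57BL/6J and Cav1-null (B6.Cg-Cav1tm1Mls/J). The members are the 37 rows of the gene count table whose symbol starts with mt-, out of 55416 rows in all, and they were chosen by this name and not by a measured value. They comprise 13 protein-coding genes, 2 rRNA genes and 22 tRNA genes. Both AKR/J and C57BL/6J are inbred, and Cav1-null mice carry a deletion of the caveolin gene Cav1 on a C57BL/6J background in every tissue. No fetus received a treatment and all of them were female by PCR typing. With 3 strains and 3 days there were 9 groups of 3 libraries, each library made from poly(A)-selected RNA of the dissected brain of a fetus, with the day of the vaginal plug counted as the first day of gestation. The labels do not say whether the fetuses of a group shared a litter, so that the p-values measure the spread between fetuses, whichever litters they came from.

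The mitochondrial genome is a small circle without introns. It encodes subunits of respiratory complex I (the mt-Nd genes), complex III (mt-Cytb), complex IV (the mt-Co genes) and the ATP synthase (the mt-Atp genes), and the rRNAs and tRNAs that translate them. Both strands are transcribed as long precursors that are cut at the tRNAs, and most messages and the rRNAs then receive a short poly(A) tail. All other subunits of these complexes, the mitochondrial ribosomal proteins and the factors that transcribe, cut and translate this RNA are nuclear gene products.

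Of the 37 genes, 10 had at least 10 reads in each of the 27 libraries. These were mt-Nd1, mt-Nd2, mt-Nd4, mt-Nd5, mt-Nd6, mt-Cytb, mt-Co1, both rRNA genes mt-Rnr1 and mt-Rnr2, and the proline tRNA gene mt-Tp. Another 21 genes had no read in any library, namely mt-Atp8, mt-Atp6, mt-Nd4l and 18 tRNA genes. The remaining 6 had fewer than 10 reads in at least 1 library, with totals over the 27 libraries of 236 for mt-Nd3, 15 for mt-Tc, 3 for mt-Co3, 2 for mt-Tl1 and 1 each for mt-Co2 and mt-Tn. The libraries held 26363697 to 39759702 reads on genes, so that a count of 0 allows a level of up to 0.114 CPM (reads per library size, on the usual CPM scale) in the smallest library, for counting error only.

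The protein-coding genes with no or few reads lie side by side. In GRCm39, mt-Co2 (MT 7013 to 7696), mt-Atp8 (7766 to 7969), mt-Atp6 (7927 to 8607), mt-Co3 (8607 to 9390), mt-Nd3 (9459 to 9806) and mt-Nd4l (9877 to 10173) fall in a stretch of the mitochondrial genome that also stands in the nuclear genome. A copy on chromosome 1, from 24650616 to 24655269 on the minus strand, is 99.936% identical to MT 6390 to 11042 over 4654 aligned positions. It was the longest of 7 nuclear copies of at least 300 bases and 95% identity that BLAST found. Of the 16150 windows of 150 bases (the read length) on the mitochondrial genome, 4320 (26.7%) also occur letter for letter in the nuclear genome. All windows of mt-Co2, mt-Atp8, mt-Atp6, mt-Co3 and mt-Nd4l are among them, 98.5% of those of mt-Nd3, 59.2% of those of mt-Nd4 and 23.6% of those of mt-Co1. No window of mt-Nd1, mt-Nd2, mt-Nd5, mt-Nd6, mt-Cytb or the rRNA genes is. How reads with several matches were counted is not given in the sources used here, and its part in the zeros was not tested.

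The copy differs from the mitochondrial genome at 3 places, which are the only ones where a read of the stretch can be told apart. Of these, T9461C (mitochondrial base, position on MT, base of the copy) is the third base of mt-Nd3, A6393T lies in mt-Co1, and an added A lies next to position 9828 in the arginine tRNA gene mt-Tr. The sequences around the mt-Nd3 and mt-Tr differences are shown because they lie at the start of mt-Nd3 and just past its end, with the differing base in capitals and MT read on the plus strand (MT:9431-9491 and MT:9799-9858) and chromosome 1 on the minus strand (chr1:24652168-24652228 and chr1:24651800-24651860) of GRCm39.
mt-Nd3 start, MT: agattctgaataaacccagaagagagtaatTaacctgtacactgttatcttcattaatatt
mt-Nd3 start, chromosome 1 copy: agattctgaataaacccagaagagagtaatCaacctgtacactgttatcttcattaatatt
mt-Tr, MT: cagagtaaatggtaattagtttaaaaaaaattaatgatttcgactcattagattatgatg
mt-Tr, chromosome 1 copy: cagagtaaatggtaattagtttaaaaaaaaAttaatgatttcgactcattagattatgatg

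**Figure D1:**
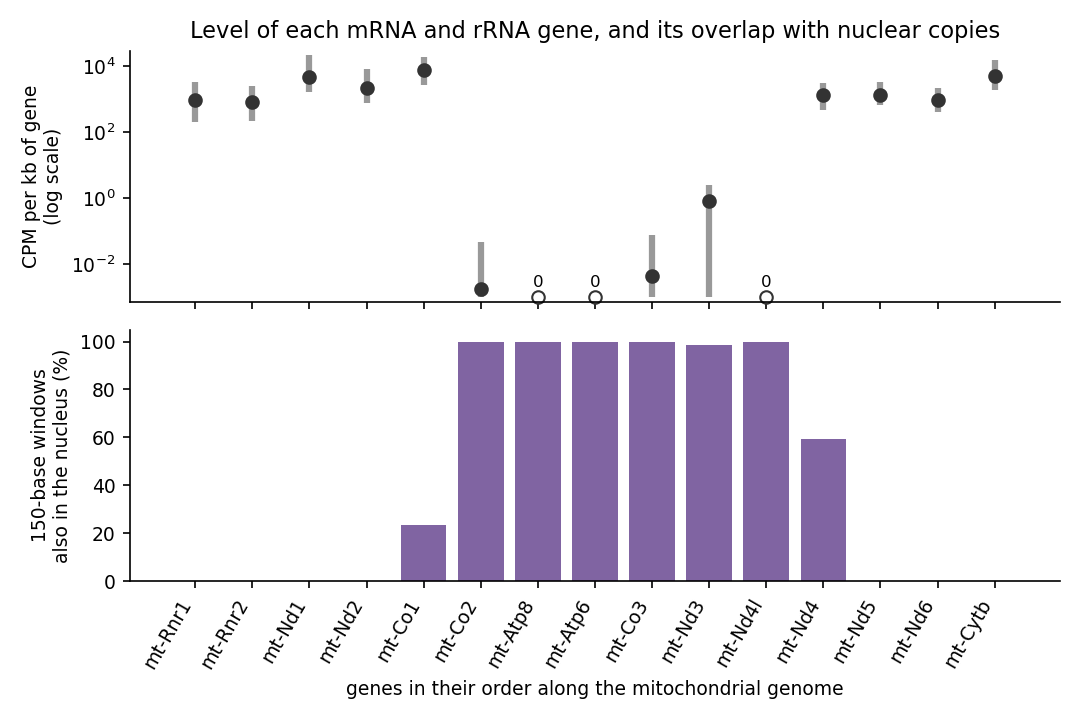
Level of the 13 protein-coding and 2 rRNA genes in CPM per kb (upper panel, log scale; points are means over the 27 libraries, grey bars run from the lowest to the highest library, and genes with no read are open circles at the bottom), in their order along the mitochondrial genome. The lower panel gives the percent of each gene's 150-base windows that also occur in the nuclear genome, which is 98.5% to 100% for the run of genes with no or few reads from mt-Co2 to mt-Nd4l.

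Within mt-Nd3, a subunit of complex I, only 3 of the 199 windows hold the differing base. The C57BL/6J libraries had 9, 4 and 8 mt-Nd3 reads on d12, 10, 8 and 8 on d15, and 9, 22 and 13 on d17. The Cav1-null libraries had 10, 17 and 19 reads on d12, 12, 25 and 21 on d15, and 15, 6 and 18 on d17. In AKR/J, 1 library of d12 had 2 reads and the other 8 libraries had 0. The 9 AKR/J libraries therefore lie below all 18 libraries of the other strains. Gm28438, the nuclear pseudogene on chromosome 1 (24651856 to 24652200) that holds the copy of mt-Nd3, had the opposite order, with 1404, 564 and 1154 reads in AKR/J on d12, 317, 284 and 294 on d15, and 481, 465 and 621 on d17. It had 2 to 55 reads in C57BL/6J and 3 to 9 in Cav1-null. It was described after its values were seen, and no test is given. Summed over the 9 libraries of a strain, mt-Nd3 and Gm28438 had 2 and 5584 reads in AKR/J, 91 and 218 in C57BL/6J, and 143 and 50 in Cav1-null. The mitochondrial sequence of AKR/J at MT 9461 was not read here, so that its part in this difference was not tested. Another nearby pseudogene, Gm10222, had 5 to 30 reads in AKR/J, 0 to 6 in C57BL/6J and 0 to 2 in Cav1-null.

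**Figure D2:**
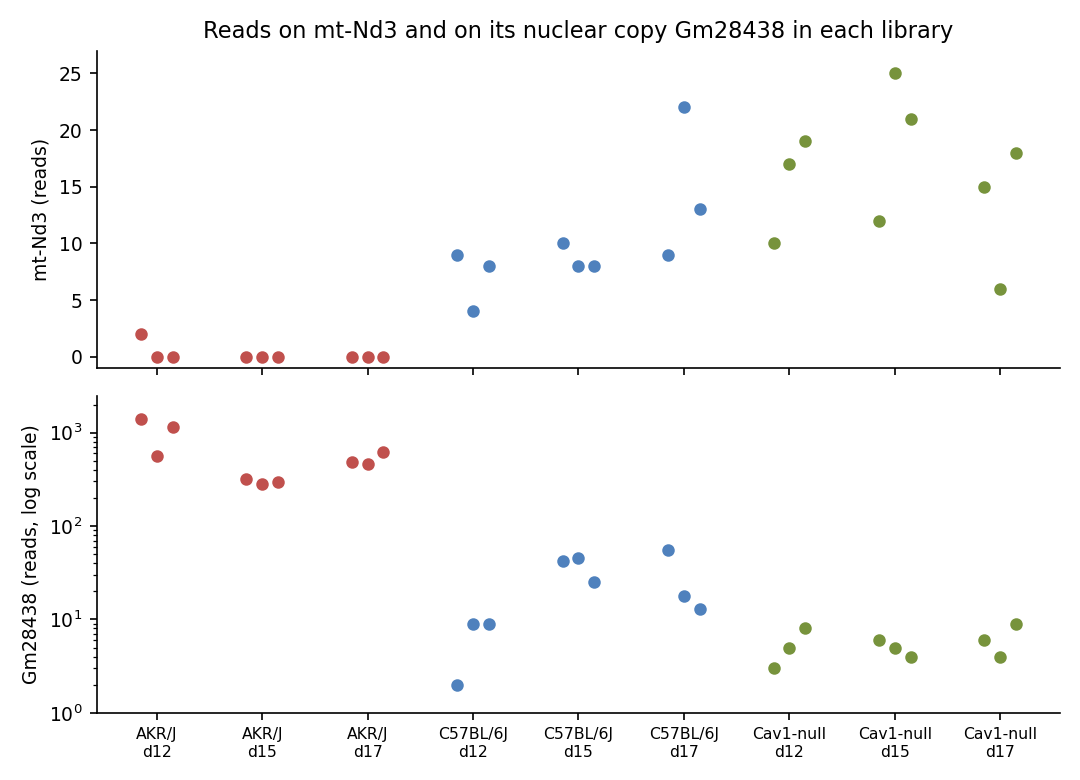
Reads of mt-Nd3 (upper panel) and of the pseudogene Gm28438 (lower panel, log scale) in each of the 27 libraries by strain and day, 1 point a library. The AKR/J libraries have at most 2 mt-Nd3 reads and at least 284 Gm28438 reads, apart from the libraries of the other strains in both.

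Per kilobase of gene length, mt-Co1 was the highest of the measured genes at 7758 ± 3743 CPM per kb (SD, n = 27), followed by mt-Cytb at 5145 ± 2934 and mt-Nd1 at 4815 ± 4184. This order of the 3 held for the means of 8 of the 9 groups, but in AKR/J d12 mt-Nd1 (14533 ± 6951 CPM per kb, n = 3) was above mt-Co1 (13955 ± 4599) and mt-Cytb (11020 ± 4717), within their spread. The other complex I genes were lower, with 2216 ± 1601 for mt-Nd2, 1404 ± 642 for mt-Nd5, 1324 ± 605 for mt-Nd4 and 940 ± 403 for mt-Nd6 in the same unit. The rRNA genes had 976 ± 776 (mt-Rnr1) and 845 ± 615 (mt-Rnr2) CPM per kb, although poly(A) selection weighs them by their tails. The spread over the libraries exceeds each step between neighbours in this order. It holds the spread of the mitochondrial share itself, so it does not measure how steady the order is within a library. If only the windows that do not occur in the nuclear genome are taken, mt-Nd4 has 3635 CPM per 1000 such windows, above mt-Nd2 (2588) and mt-Nd5 (1529), and mt-Co1 has 11244. How shared reads were counted, and so the place of mt-Nd4 in the order, was not tested. The tRNA genes are 59 to 75 bases long and mostly abut their neighbours, whereas mt-Tp lies beside the 877 bases of the control region. The 3 tRNA genes of highest mean level were mt-Tp at 22.8 CPM, mt-Tc at 0.0185 CPM and mt-Tl1 at 0.00249 CPM.

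The labels were checked on the deleted gene and on markers of the tissue. Cav1 was at 0 to 0.551 CPM in the Cav1-null libraries, at 6.36 to 38 CPM in AKR/J and at 10.7 to 43 CPM in C57BL/6J. All 5 neuron markers (such as Tubb3 and Dcx) had at least 10 reads in every library, and their sum was 0.137% to 0.2% of reads in the AKR/J d12 libraries against 0.358% to 0.687% in the 24 others. The 14 erythroid markers found in the table (such as Hbb-y, an embryonic globin) were above 0 in all 9 groups and took 3.57% to 13.6% of the reads of AKR/J d12, against at most 1.93% elsewhere. The 7 trophoblast and decidua markers took 0.00234% to 0.0504% in AKR/J d12, 0.00705% in 1 C57BL/6J d12 library (replicate 3) and at most 0.000665% in the other libraries. The share of 3 long nuclear RNAs taken as a sign of RNA quality (Malat1, Neat1 and Meg3, all above 0 in every group) was 0.148%, 0.407% and 0.16% in AKR/J d12, of which the lowest and the next lowest were also the lowest of all 27 libraries. The AKR/J d12 libraries thus stand apart, and each result on them below moved together with these markers, whose part in it was not tested. Other groups differed in markers as well. The long nuclear RNA share was higher on d17 than on d15 without overlap in AKR/J (0.5% to 0.674%, then 0.83% to 0.998%), C57BL/6J (0.38% to 0.463%, then 0.576% to 1.22%) and Cav1-null (0.714% to 0.79%, then 0.957% to 1.2%). Erythroid markers went from 0.216% to 0.332% up to 0.363% to 1.93% of reads in AKR/J over these days, from 0.074% to 0.0994% up to 0.231% to 0.319% in C57BL/6J, and from 0.311% to 0.385% down to 0.0622% to 0.268% in Cav1-null. All 5 progenitor markers (such as Sox2 and Nes) had at least 10 reads in every library, with a sum of 0.0733% to 0.0948% in AKR/J, 0.0988% to 0.111% in C57BL/6J and 0.0419% to 0.0452% in Cav1-null on d15. On d17 this sum was lower without overlap in each strain, at 0.0316% to 0.0418%, 0.0285% to 0.0551% and 0.028% to 0.029% in the same order. Fewer cells of a type and less RNA per cell cannot be told apart in these bulk samples.

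The summed mitochondrial genes took 1.15% to 9.59% of the reads on genes. In AKR/J their share was 9.59%, 3.98% and 6.66% on d12 (6.74 ± 2.81%, SD, n = 3), 2.63%, 2.69% and 2.26% on d15 (2.53 ± 0.233%) and 3.29%, 4.28% and 4.49% on d17 (4.02 ± 0.641%). In C57BL/6J it was 1.57%, 1.15% and 1.79% on d12 (1.5 ± 0.325%), 1.21%, 1.31% and 1.28% on d15 (1.27 ± 0.0513%) and 1.53%, 4.43% and 2.47% on d17 (2.81 ± 1.48%). In Cav1-null it was 2.6%, 2.9% and 2.58% on d12 (2.69 ± 0.179%), 3.18%, 3.22% and 3.71% on d15 (3.37 ± 0.295%) and 4.67%, 3.2% and 3.59% on d17 (3.82 ± 0.762%). The C57BL/6J libraries of d12 and d15 were below all libraries of the other strains on the same days, whereas on d17 the C57BL/6J library of replicate 2 lay within their range. That library also had the highest share of long nuclear RNA of all libraries (1.22%).

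Across strains, the share rose in the late phase (d15 to d17), by a mean log2 difference of 0.61 or 1.53-fold (exact stratified permutation test, two-sided, p = 0.0015, adjusted p = 0.0048 over 16 tests). Within AKR/J this difference was 0.66, within C57BL/6J 1.02 and within Cav1-null 0.16. The long nuclear RNAs were also higher on d17 in all 3 strains and the erythroid markers in AKR/J and C57BL/6J, while the progenitor markers were lower in all 3. The 6 choroid plexus markers (such as Ttr) were higher without overlap on d17 in AKR/J (0.0362% to 0.0482%, then 0.055% to 0.0609%) and C57BL/6J (0.0408% to 0.0519%, then 0.0605% to 0.0628%). In Cav1-null they were lower (0.0436% to 0.0549%, then 0.0347% to 0.0421%). The 6 yolk sac endoderm markers, which share Ttr, were higher without overlap in AKR/J and C57BL/6J only. The part of these markers in the rise of the share was not tested. In the early phase (d12 to d15) the mean log2 difference was −0.41, which did not pass (exact p = 0.0985, adjusted p = 0.143), with −1.33 within AKR/J, −0.22 within C57BL/6J and 0.32 within Cav1-null. Over the 3 days the share was 2.37-fold higher in AKR/J than in C57BL/6J (exact p = 0.00075, adjusted p = 0.004), with log2 differences of 2.10 on d12, 0.99 on d15 and 0.64 on d17. It was 1.93-fold higher in Cav1-null than in C57BL/6J (exact p = 0.00075, adjusted p = 0.004), with log2 differences of 0.87, 1.41 and 0.56. On d12 Cav1-null was also apart from C57BL/6J in long nuclear RNA (0.411% to 0.663% against 0.273% to 0.361%) and progenitor markers (0.0903% to 0.103% against 0.127% to 0.168%). On d17 AKR/J was above C57BL/6J in erythroid markers (0.363% to 1.93% against 0.231% to 0.319%). Cav1-null was below C57BL/6J on d17 in choroid plexus (0.0347% to 0.0421% against 0.0605% to 0.0628%) and yolk sac endoderm markers (0.03% to 0.0374% against 0.0533% to 0.0568%). The part of these markers was not tested. Both strain contrasts share the C57BL/6J libraries, and both day contrasts share the d15 libraries.

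**Figure D3:**
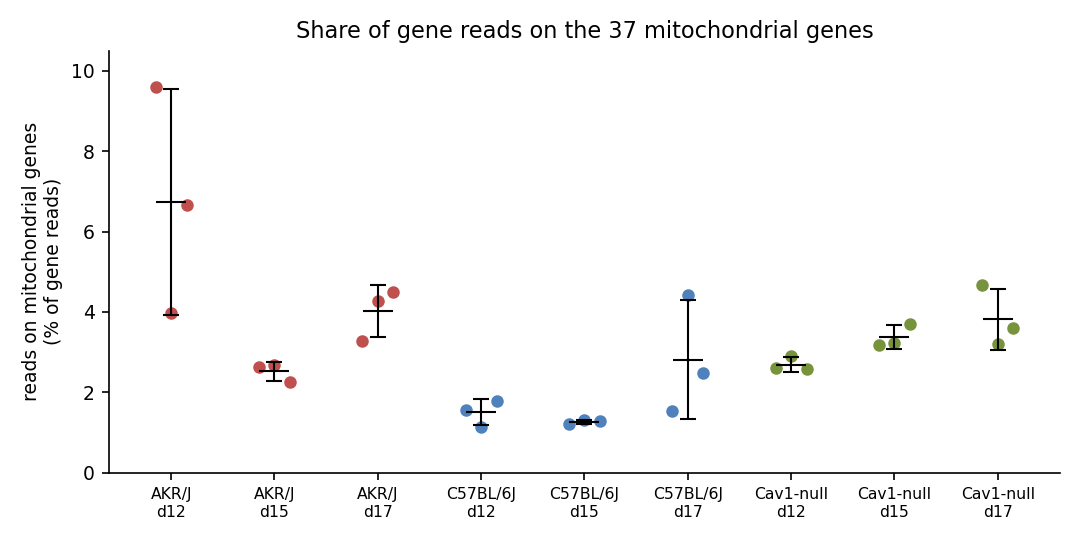
Percent of gene reads on the 37 mitochondrial genes in each library by strain and day, with 1 point a library and the group mean and SD (n = 3) in black. AKR/J d12 spans 3.98% to 9.59%, and the C57BL/6J libraries of d12 and d15 lie at 1.15% to 1.79%.

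Gene by gene, the changes between days were tested in each strain with edgeR on 6 libraries. From d12 to d15 all 10 tested members fell in AKR/J, while 14% of all genes tested were called lower and 14.8% higher. The median log2 fold change of the members was −2.09, against 0.02 for all genes. The count was 3 without d12 replicate 1, d12 replicate 3 or d15 replicate 2, and 1 without d15 replicate 1 or replicate 3. It was 3 in a fit with a replicate block. When libraries were scaled by size alone, the median of all genes in this comparison moved from 0.02 to 0.46 and the share of higher among all called genes from 51.4% to 74.7%. In a TMM scaling of all 27 libraries the factors were 0.679, 1.07 and 0.688 for AKR/J d12 and 1.07, 1.11 and 1.04 for AKR/J d15. The fold changes are TMM-scaled and the CPM values below are not. For mt-Tp the early change in AKR/J was −3.41 scaled and −2.59 in CPM, and for mt-Rnr1 −2.44 and −1.66. All 10 tested members then rose in the late phase of AKR/J, by a median of 0.70, against 11.6% of all genes called higher and 10.4% lower. This count was 6 without d15 replicate 1, 2 when either of d17 replicates 2 and 3 was left out, 5 in a fit with a replicate block, and 0 in a model of all 27 libraries.

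In C57BL/6J, 0 of 10 tested members were called by edgeR in the early phase, where 7.08% of all genes were called higher and 7.8% lower. No member reached an unadjusted p under 0.05, beside 6885 of 19154 genes tested, and DESeq2 called 0 of the members. Without d12 replicate 2 the count was 4, all lower. Later, from d15 to d17, 3 of 10 members rose (mt-Rnr1, mt-Rnr2 and mt-Tp), against 7.46% of all genes called higher and 5.58% lower. The count was 0 without any 1 of the d15 libraries or d17 replicate 3, and 10 without d17 replicate 1, whose mitochondrial share was the lowest of its group. DESeq2 called 9 of the 10 in this phase, beside which no share of all genes called by DESeq2 is given. The median of the 10 members was 0.96, and with size scaling alone the median of all genes here was 0.17 in place of 0.03, with 68.4% in place of 57.2% of the called genes higher.

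In Cav1-null, the members tested were 11, since mt-Nd3 passed the filter on low counts. In the early phase 2 of them rose (mt-Rnr1 and mt-Rnr2), where 11.6% of all genes were called higher and 11.8% lower. From d15 to d17, 3 rose (mt-Rnr1, mt-Nd5 and mt-Nd6), against 14.5% of all genes higher and 12.8% lower. The Cav1-null libraries of d12 and d15 also differed without overlap in long nuclear RNA (0.411% to 0.663%, then 0.714% to 0.79%), neuron markers (0.453% to 0.53%, then 0.552% to 0.562%), erythroid markers (0.456% to 0.554%, then 0.311% to 0.385%) and progenitor markers (0.0903% to 0.103%, then 0.0419% to 0.0452%). The same 4 sets differed without overlap from d15 to d17, when long nuclear RNA (0.957% to 1.2%) and neuron markers (0.573% to 0.628%) were higher and erythroid (0.0622% to 0.268%) and progenitor markers (0.028% to 0.029%) lower. Choroid plexus markers were lower on d17 as well, without overlap (0.0436% to 0.0549%, then 0.0347% to 0.0421%). The part of these markers in the changes of either phase was not tested. The counts of the phases were 4 without d12 replicate 2 and 5 without d17 replicate 2, and both were 0 in a model of all 27 libraries. The early count was 5 by DESeq2 and 4 by the likelihood ratio test or with size scaling alone. The median of the members was 0.33 in the first and 0.18 in the second of these phases.

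**Figure D4:**
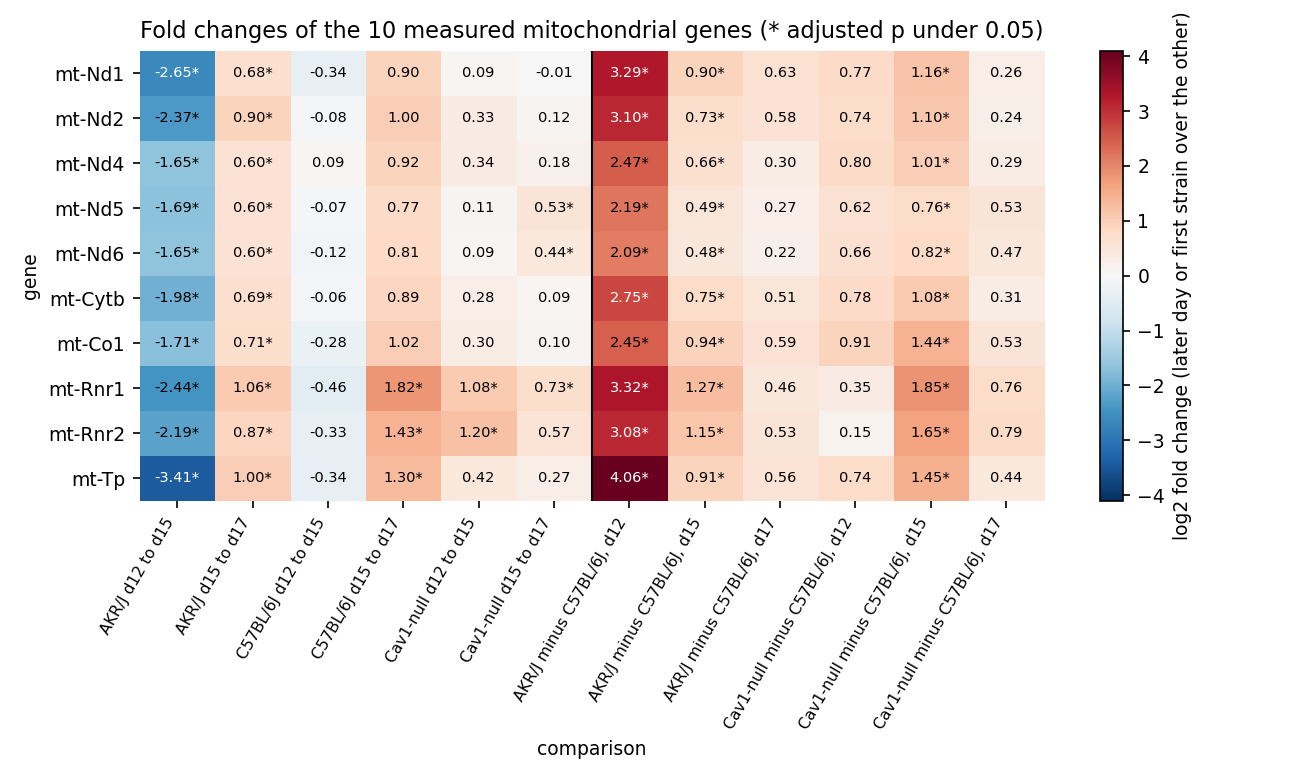
Log2 fold changes of the 10 genes with at least 10 reads in every library (rows), in red where the later day or the first strain is higher and in blue where it is lower, with a star for an adjusted p under 0.05 by edgeR. Columns to the left of the line compare days within a strain and those to the right compare strains on a day, and the 10 genes of the first column (AKR/J, d12 to d15) are all below 0.

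Of the complex I genes, mt-Nd1 (MT 2751 to 3707) encodes a core subunit in the membrane. Its level in AKR/J was 20644, 7342 and 13738 CPM on d12, 3439, 3493 and 3186 on d15, and 4274, 5489 and 5921 on d17, without overlap between days in either phase. It fell in the early phase with a log2 fold change of −2.65 (SE 0.58, adjusted p = 0.0123) and rose in the late phase with 0.68 (SE 0.15, adjusted p = 0.0146). With each of the 6 libraries left out in turn, the early call was made 4 times (not without d15 replicate 1 or 3) and the late call 4 times (not without d17 replicate 2 or 3). C57BL/6J libraries had 2174, 1639 and 2512 CPM on d12, 1559, 1661 and 1608 on d15, and 1939, 5299 and 2915 on d17. Neither phase passed the test in C57BL/6J, with −0.34 (SE 0.16, adjusted p = 0.174) and 0.90 (SE 0.31, adjusted p = 0.0929), although all d17 libraries were above all d15 libraries. In Cav1-null it was at 3521, 4167 and 3558 CPM on d12, 3871, 3864 and 4464 on d15, and 4577, 3657 and 3901 on d17, and the days overlapped in both phases. The log2 fold changes there were 0.09 (SE 0.14, adjusted p = 0.666) early and −0.01 (SE 0.11, adjusted p = 0.96) late.

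The light-strand gene mt-Nd6 (MT 13552 to 14070), another membrane subunit of complex I, is the only protein-coding gene read from that strand. It had 1150, 514 and 754 CPM in AKR/J on d12, 407, 445 and 302 on d15, and 509, 569 and 616 on d17. Its log2 fold change was −1.65 (SE 0.43, adjusted p = 0.0223) in the early and 0.60 (SE 0.14, adjusted p = 0.0194) in the late phase of AKR/J. With a library left out, the early call was made only without d12 replicate 2 and the late call was lost without d17 replicate 2 or 3. C57BL/6J libraries had 275, 238 and 317 CPM, then 220, 275 and 244, then 292, 757 and 410, with 0.81 (SE 0.29, adjusted p = 0.103) in the late phase. In Cav1-null it had 420, 464 and 486 CPM on d12, 490, 493 and 502 on d15, and 797, 610 and 614 on d17, a late rise of 0.44 (SE 0.11, adjusted p = 0.00691) that was called with any 1 library left out. Whether the counting used the strand is not given in the sources used here, so that mt-Nd6 reads and antisense reads of the heavy-strand transcript cannot be told apart. The remaining complex I genes mt-Nd2, mt-Nd4 and mt-Nd5 fell by 2.37, 1.65 and 1.69 on the log2 scale early in AKR/J and had late log2 fold changes of 0.90, 0.60 and 0.60, all called. Of these, mt-Nd5 also rose in the late phase of Cav1-null, by 0.53 (SE 0.11, adjusted p = 0.00296).

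The complex III gene mt-Cytb (MT 14145 to 15288) encodes cytochrome b. It had 18168, 7392 and 12261 CPM in AKR/J on d12, 4956, 4849 and 4583 on d15, and 6184, 8071 and 8197 on d17. The log2 fold changes were −1.98 (SE 0.54, adjusted p = 0.0265) and 0.69 (SE 0.15, adjusted p = 0.0134). With a library left out, the early change ranged from −2.39 to −1.51 and was called only without d12 replicate 2, and the late call was lost without either of d17 replicates 2 and 3. The C57BL/6J level was 2830, 2173 and 3253 CPM on d12, 2409, 2666 and 2541 on d15, and 3092, 8075 and 4632 on d17. The C57BL/6J days overlapped in the early phase only, with log2 fold changes of −0.06 (SE 0.16, adjusted p = 0.807) and 0.89 (SE 0.31, adjusted p = 0.0921). In Cav1-null it had 4823, 5342 and 4598 CPM, then 5644, 5864 and 6782, then 7710, 5554 and 6277, and did not pass in either phase (0.28, SE 0.14, adjusted p = 0.174, and 0.09, SE 0.12, adjusted p = 0.631).

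In complex IV, mt-Co1 (MT 5328 to 6872) encodes the catalytic subunit of cytochrome c oxidase. In AKR/J it had 28961, 14790 and 20931 CPM on d12, 10367, 10320 and 8749 on d15, and 12590, 16685 and 17446 on d17. It fell with a log2 fold change of −1.71 (SE 0.53, adjusted p = 0.0429) and then rose with 0.71 (SE 0.17, adjusted p = 0.0194). With a library left out, the early change ranged from −2.07 to −1.32 and was called only without d12 replicate 2, and the late call was lost without d15 replicate 1 and without either of d17 replicates 2 and 3. The C57BL/6J libraries had 5968, 4149 and 7118 CPM on d12, 4435, 4646 and 4575 on d15, and 5261, 16709 and 9335 on d17. The C57BL/6J changes of −0.28 (SE 0.19, adjusted p = 0.334) and 1.02 (SE 0.36, adjusted p = 0.0944) did not pass, and the d17 libraries spanned more than the step between the days. In Cav1-null it had 10926, 12095 and 10530 CPM, then 13004, 13346 and 15666, then 18153, 12476 and 14387, with changes of 0.30 (SE 0.15, adjusted p = 0.177) and 0.10 (SE 0.13, adjusted p = 0.643). For the ATP synthase no level can be given, since mt-Atp6, its membrane subunit a, and mt-Atp8 had no read.

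The large rRNA gene mt-Rnr2 (MT 1094 to 2675) had 4028, 1342 and 3547 CPM in AKR/J on d12, 1084, 1293 and 623 on d15, and 1341, 1934 and 2003 on d17. It fell with a log2 fold change of −2.19 (SE 0.58, adjusted p = 0.0236) and rose with 0.87 (SE 0.26, adjusted p = 0.0436). With a library left out, the early change of mt-Rnr2 was called 1 time in 6 (without d12 replicate 2) and the late one 2 times (without d15 replicate 2 or d17 replicate 1). In C57BL/6J it had 664, 361 and 551 CPM on d12, 364, 411 and 433 on d15, and 626, 1925 and 1124 on d17, an early change of −0.33 (SE 0.21, adjusted p = 0.289) and a late rise of 1.43 (SE 0.34, adjusted p = 0.0339). In Cav1-null the order of the phases differed, with 526, 638 and 672 CPM on d12, 1466, 1343 and 1478 on d15, and 3305, 1406 and 1613 on d17. The early rise of 1.20 (SE 0.11, adjusted p = 0.00038) was called with any 1 library left out (1.11 to 1.27), while the late change of 0.57 (SE 0.24, adjusted p = 0.0965) did not pass.

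The small rRNA gene mt-Rnr1 (MT 70 to 1024) had the largest late rise of the members in AKR/J, with 654, 802 and 398 CPM on d15 and 894, 1359 and 1481 on d17 and a log2 fold change of 1.06 (SE 0.26, adjusted p = 0.0233). It also had the largest late rise in C57BL/6J, from 201, 227 and 258 CPM on d15 to 428, 1465 and 848 on d17, with 1.82 (SE 0.37, adjusted p = 0.0231). In Cav1-null it rose in both phases, from 353, 442 and 510 CPM on d12 to 979, 883 and 932 on d15 and 2342, 1024 and 1252 on d17, with 1.08 (SE 0.13, adjusted p = 0.000846) and 0.73 (SE 0.23, adjusted p = 0.0272). A called fall of both rRNA genes was seen only in the early phase of AKR/J, where mt-Rnr1 had a log2 fold change of −2.44 (SE 0.61, adjusted p = 0.0199) from 3237, 851 and 2379 CPM on d12. With a library left out, the early rise of mt-Rnr1 in Cav1-null was called every time (0.95 to 1.16). Its late rise there was called 3 times in 6 (0.27 to 0.97, not without any 1 of the d15 libraries). The late rise of mt-Rnr1 was called 3 times in AKR/J (not without d15 replicate 1, d17 replicate 2 or d17 replicate 3) and 2 times in C57BL/6J (without d17 replicate 1 or 2), and its early fall in AKR/J 2 times (without d12 replicate 2 or d15 replicate 2).

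Among the tRNA genes only mt-Tp (MT 15356 to 15422, minus strand) could be tested. It had 119, 31.5 and 105 CPM in AKR/J on d12, 13.2, 14.5 and 9.48 on d15, and 20.6, 25.8 and 25.3 on d17. Its log2 fold change of −3.41 (SE 0.59, adjusted p = 0.00518) was the largest fall of the members, followed by a rise of 1.00 (SE 0.17, adjusted p = 0.00583). Both were called with any 1 library left out, with changes of −3.90 to −3.02 and 0.85 to 1.11. For C57BL/6J the values were 7.84, 6.45 and 8.84 CPM, then 6.64, 4.37 and 6.64, then 8.47, 25.4 and 15, with a late rise of 1.30 (SE 0.35, adjusted p = 0.0491) that was called with a library left out only without d17 replicate 1. In Cav1-null it had 13.5, 14.3 and 12.6 CPM, then 15.2, 17.1 and 22.4, then 25.4, 18.8 and 21.9, and no phase passed (0.42, SE 0.17, adjusted p = 0.119, and 0.27, SE 0.15, adjusted p = 0.213). A gene of 67 bases is shorter than a read, so that its reads also hold neighbouring sequence.

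The members were also set against each other within libraries, which removes the size of the mitochondrial share. The rRNA genes had 7.07, 8.45 and 4.74 reads per 100 protein-coding mitochondrial reads in AKR/J on d15 and 7.3, 8.34 and 8.42 on d17. They had 4.89, 5.12 and 5.73 and then 7.39, 8.29 and 8.68 in C57BL/6J, and 8.32, 7.42 and 6.95 and then 13.8, 8.24 and 8.67 in Cav1-null. This ratio rose in the late phase by 1.35-fold (exact permutation p = 0.00275, adjusted p = 0.00733), with log2 differences of 0.29, 0.63 and 0.40 in the 3 strains. The early phase did not pass (mean log2 difference 0.16, exact p = 0.399, adjusted p = 0.491) and differed in sign, with −0.24 for AKR/J, −0.18 for C57BL/6J and 0.91 for Cav1-null, whose d12 libraries held 3.51, 3.87 and 4.8 reads per 100. The strain contrasts of this ratio did not pass, with 0.23 for AKR/J (exact p = 0.088, adjusted p = 0.141, 0.0489 without AKR/J d15 replicate 3, and 0.0032 with the median of log2 counts in place of the sum) and 0.09 for Cav1-null (exact p = 0.602, adjusted p = 0.602). The Cav1-null value is a mean of differences of opposite sign, −0.56 on d12 and 0.53 on d15, both without overlap between the strains, and 0.30 on d17.

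The tRNA reads per 100000 protein-coding reads were 135, 84 and 173 in AKR/J on d12 and 35.1 to 67.2 in the 24 other libraries. Their ratio rose in the late phase by 1.22-fold (exact permutation p = 0.001, adjusted p = 0.004), a call that was lost when the median of log2 counts replaced the sum (0.22, exact test, adjusted p = 0.131). The log2 difference of 0.45 between AKR/J and C57BL/6J did not pass after adjustment (exact p = 0.0295, adjusted p = 0.059) but passed with the median (0.67, exact test, adjusted p = 0.002). The sum also passed without AKR/J d15 replicate 3, C57BL/6J d15 replicate 1 or C57BL/6J d17 replicate 3 (exact test, adjusted p = 0.0489, 0.048 and 0.049). Of these reads nearly all were on mt-Tp. The reads of mt-Nd6 per 100 reads on the other protein-coding genes were 1.32, 1.39 and 1.26 in AKR/J on d12, 1.68, 1.83 and 1.42 on d15, and 1.69, 1.46 and 1.51 on d17. In C57BL/6J they were 1.92, 2.23 and 1.91, then 1.94, 2.26 and 2.07, then 2.09, 1.89 and 1.84, so that every AKR/J library was below every C57BL/6J library of the same day. The ratio was 0.744-fold in AKR/J relative to C57BL/6J (exact p = 0.00025, the smallest that 8000 permutations can give, adjusted p = 0.004), with log2 differences of −0.61, −0.35 and −0.32 on d12, d15 and d17. In Cav1-null it was 1.7, 1.69 and 2.01, then 1.69, 1.67 and 1.47, then 1.98, 2.11 and 1.89, or 0.891-fold of C57BL/6J (exact p = 0.0275, adjusted p = 0.059). This difference passed without C57BL/6J d17 replicate 3, Cav1-null d12 replicate 3 or Cav1-null d17 replicate 2 (exact test, adjusted p = 0.0389, 0.0314 and 0.0343). Neither phase passed the test for this ratio across strains (exact p = 0.395 and 0.57), where the strains differed in sign. The early log2 differences were 0.31 in AKR/J (1.24-fold, without overlap), 0.05 in C57BL/6J and −0.16 in Cav1-null. The late ones were −0.08, −0.11 and, without overlap, 0.31 (1.24-fold) for the same strains.

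**Figure D5:**
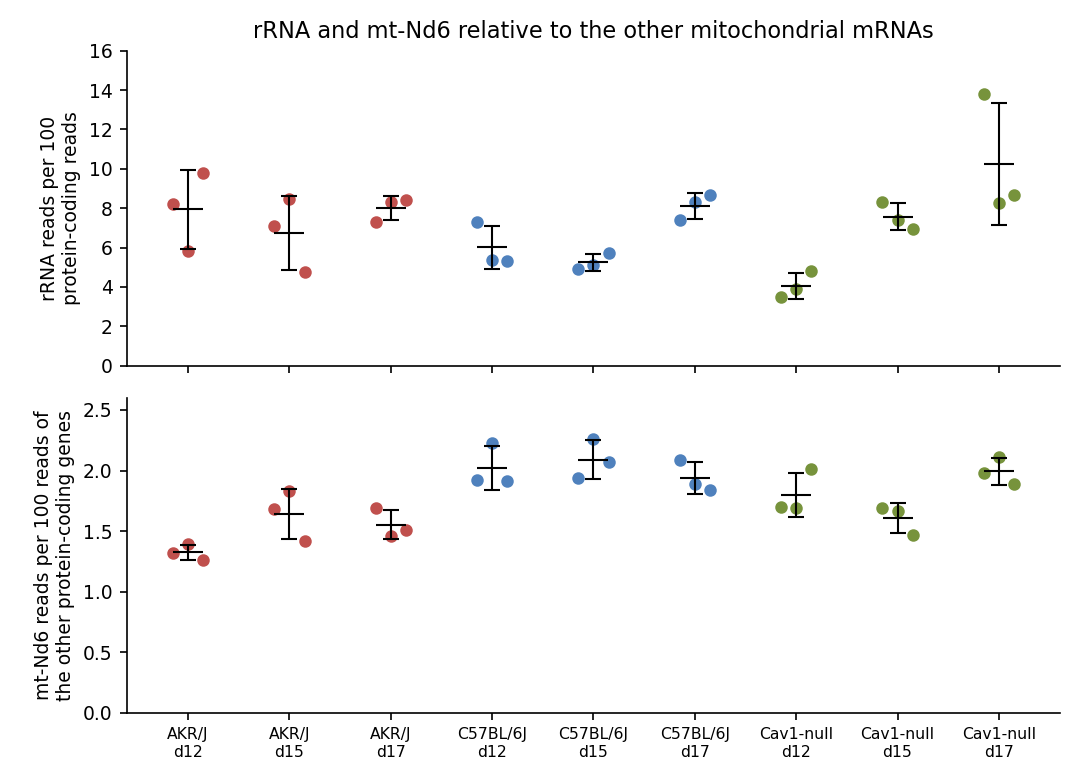
Ratios within the mitochondrial reads of each library by strain and day: rRNA reads per 100 protein-coding reads (upper panel) and mt-Nd6 reads per 100 reads on the other protein-coding genes (lower panel), with 1 point a library and the group mean and SD (n = 3) in black. The AKR/J libraries of d12 lie at 1.26 to 1.39 in the mt-Nd6 ratio, below all other libraries.

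Within the mitochondrial reads, mt-Nd1 took 20.2 ± 1.59% (SD, n = 3) in AKR/J on d12 and 10.7% to 14.1% on average in the other 8 groups. The share of mt-Co1 was 32.9 ± 3.71% in AKR/J d12, the lowest group mean, and 36% to 41.5% in the others. These shares are parts of a whole and move against each other.

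Between strains on the same day, AKR/J was above C57BL/6J in all 10 tested members on d12, where 14.5% of all genes were called higher and 14.1% lower. The log2 differences ranged from 2.09 (mt-Nd6) to 4.06 (mt-Tp, SE 0.59, adjusted p = 0.0115), with 3.29 for mt-Nd1 (SE 0.64, adjusted p = 0.0122). This count was 3 without C57BL/6J d12 replicate 1 and 0 without C57BL/6J d12 replicate 2, and size scaling alone moved the median of all genes from 0.02 to −0.38 and the share of higher calls from 50.6% to 30.2%. On d15 all 10 were again higher, by 0.48 (mt-Nd6) to 1.27 (mt-Rnr1), where 18.8% of all genes were called higher and 22.3% lower (45.7% of the calls higher, and 62.8% with size scaling alone), and none of the 10 was called in a model of all 27 libraries. The d15 libraries of AKR/J also lay above those of C57BL/6J in erythroid markers (0.216% to 0.332% against 0.074% to 0.0994%) and long nuclear RNA (0.5% to 0.674% against 0.38% to 0.463%), and below them in neuron markers (0.424% to 0.585% against 0.599% to 0.654%) and progenitor markers (0.0733% to 0.0948% against 0.0988% to 0.111%), whose part in this difference was not tested. On d17, 0 of 10 were called, with log2 differences of 0.22 to 0.63 and adjusted p from 0.281 to 0.666 by edgeR, and 0.381% of all genes were called higher and 0.361% lower. None of the 10 had an unadjusted p under 0.05, beside 4275 of 20207 genes tested, and DESeq2 called 0. Without C57BL/6J d17 replicate 2 all 10 were called higher on d17.

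Between Cav1-null and C57BL/6J, 0 of the 10 members with at least 10 reads in every library were called by edgeR on d12, where 0% of all genes were called higher and 0% lower. Their log2 differences ran from 0.15 (mt-Rnr2) to 0.91 (mt-Co1), and mt-Nd3 is not counted on d12 since it passed the filter on low counts only through Cav1-null (10, 17 and 19 reads against 9, 4 and 8). Of the 10, 8 had an unadjusted p under 0.05, beside 4309 of 19475 genes tested, with adjusted p from 0.105 to 0.715 over the 10. DESeq2 called 8, beside which no share of all genes is given, and edgeR called 2 without C57BL/6J d12 replicate 3. On d15 all 10 were called higher, by 0.76 (mt-Nd5) to 1.85 (mt-Rnr1, SE 0.09, adjusted p = 8e-08), where 26.8% of all genes were called higher and 31.8% lower (45.7% of the calls higher, and 59.2% with size scaling alone). The difference in mt-Co1 was 1.44 (SE 0.07, adjusted p = 9.54e-08), whereas mt-Nd3 passed the filter on low counts on d15 only through Cav1-null (12, 25 and 21 reads against 10, 8 and 8) and is not counted. The Cav1-null libraries of d15 also lay apart from those of C57BL/6J in long nuclear RNA (0.714% to 0.79% against 0.38% to 0.463%), erythroid markers (0.311% to 0.385% against 0.074% to 0.0994%), neuron markers (0.552% to 0.562% against 0.599% to 0.654%) and progenitor markers (0.0419% to 0.0452% against 0.0988% to 0.111%), whose part in this difference was not tested. On d17, 0 of 11 were called, with −0.11 to 0.79, where 0.00491% of all genes were called higher and 0.0442% lower. None of the 11 had an unadjusted p under 0.05, beside 1538 of 20358 genes tested, and DESeq2 called 0. Without C57BL/6J d17 replicate 2, 6 members were called higher on d17.

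The interaction of strain and day, fitted on 12 libraries, tests whether a member changed by a different amount in a pair of strains. For AKR/J against C57BL/6J, 0 of 10 members were called by edgeR in the early phase, where 0.0711% of all genes were called in either direction. All 10 had an unadjusted p under 0.05, as did 3432 of the 21090 genes tested, and an adjusted p of 0.131 to 0.18. Their median difference was −1.95 on the log2 scale. DESeq2 called 10, and all 10 were called by edgeR without AKR/J d12 replicate 2. In the late phase 0 were called (0.00468% of all genes) and DESeq2 called 0. None had an unadjusted p under 0.05, beside 1617 of 21373 genes tested. For Cav1-null against C57BL/6J, with mt-Nd3 not counted, 0 of 10 were called in the early phase (0.00472% of all genes). An unadjusted p under 0.05 was reached by 4 of them, beside 3181 of 21191 genes tested. DESeq2 called 2, as did edgeR without C57BL/6J d12 replicate 2. In the late phase 0 of 10 were called (0.252% of all genes), and 7 had an unadjusted p under 0.05, beside 4683 of 21431 genes tested. The differences ran from −1.13 (mt-Rnr1) to −0.28 (mt-Nd5). DESeq2 called 0, and 7 were called by edgeR without C57BL/6J d17 replicate 1.

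The nuclear genes that serve the mitochondrial genome were taken from lists, and the counts of a list are read beside the share of all genes called in the same comparison. Of 71 tested nuclear subunits of the same respiratory complexes, 49 fell from d12 to d15 in AKR/J and 0 rose, with a median of −1.57 beside −2.09 for the mitochondrial genes (14% of all genes lower and 14.8% higher). Ndufb1, an accessory subunit of complex I, went there from 141, 52.5 and 178 CPM to 22.2, 21.9 and 20.6 (log2 fold change −3.14, SE 0.53, adjusted p = 0.00488). In the late phase of AKR/J 18 of these subunits rose and 1 fell (11.6% of all genes higher and 10.4% lower). In C57BL/6J 16 fell in the early phase (7.8% of all genes lower) and 12 rose in the late phase (7.46% of all genes higher). In Cav1-null 7 of the 71 rose and 3 fell in the early phase, no larger shares than the 11.6% and 11.8% of all genes. In its late phase 36 fell and 0 rose (12.8% of all genes lower and 14.5% higher), with a median of −0.28 beside 0.18 for the mitochondrial genes. Between strains, 53 were higher and 1 lower in AKR/J than in C57BL/6J on d12 (14.5% and 14.1% of all genes) and 52 and 4 on d15 (18.8% and 22.3%), and 57 were higher and 6 lower in Cav1-null on d15 (26.8% and 31.8%).

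Of 77 tested mitochondrial ribosomal proteins, the nuclear partners of mt-Rnr1 and mt-Rnr2, 49 fell from d12 to d15 in AKR/J and 1 rose, led by Mrps18c of the small subunit (log2 fold change −2.67), where 14% of all genes fell. In the early phase of Cav1-null 7 of the 77 fell and 0 rose, a smaller share than the 11.8% of all genes called lower, and in its late phase 32 fell and 0 rose (12.8% of all genes lower). In C57BL/6J 21 fell and 0 rose in the early phase (7.8% of all genes lower). Of 19 genes of mitochondrial transcription and the nucleoid, 7 fell from d12 to d15 in AKR/J and 1 rose (14% and 14.8% of all genes), with Ssbp1, the single-stranded DNA binding protein of mitochondria, at −1.91 (SE 0.31, adjusted p = 0.00413). Ssbp1 was also the member of this list that moved most in the late phase of Cav1-null, where it fell by 0.62 on the log2 scale.

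Of 13 regulators of mitochondrial biogenesis, 5 rose from d12 to d15 in AKR/J and 1 fell, where 14.8% of all genes rose and 14% fell. Esrrg, an orphan nuclear receptor, went there from 7.16, 6.14 and 6.64 CPM to 33.3, 38.6 and 57.4 (log2 fold change 2.18, SE 0.31, adjusted p = 0.00267). Ppargc1a, the coactivator PGC-1 alpha, led the list in the early phase of C57BL/6J with 1.18 and the AKR/J list from d15 to d17 with 0.60. Of 17 mitochondrial aminoacyl-tRNA synthetases, which load the mitochondrial tRNAs, at most 2 were called in either direction in any phase of a strain, where 5.58% to 14.8% of all genes were called in a direction. Between strains, Lars2, the leucyl-tRNA synthetase, had 292, 555 and 353 CPM in C57BL/6J on d15 against 52.7, 35.2 and 34.2 in Cav1-null (log2 difference −3.48, SE 0.25, adjusted p = 9.97e-07). In that comparison 26.8% of all genes were called higher and 31.8% lower. The summed synthetases were also higher on d12 in C57BL/6J (0.0848% to 0.147% of reads) than in AKR/J (0.0335% to 0.0665%) and Cav1-null (0.0523% to 0.0567%). Of 30 tested genes of mitochondrial RNA processing, 6 fell from d12 to d15 in AKR/J and 0 rose, beside 14% and 14.8% of all genes, and no more than 5 were called in any other phase of a strain.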

How the data were processed

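Poly(A)-selected RNA of 27 fetal brains was sequenced as 150-base read pairs. Per the labels and the study's methods, the authors used FastQC, cutadapt, fastp and STAR with the GRCm39 genome. The counting tool, how it used strands and multiply matching reads, and tool versions are not given in the sources used here. The deposited gene table holds raw read counts without normalization. The deposited splice table holds junction read counts, from which the authors removed junctions with multi-mapped reads, short overhangs or few reads.

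Groups follow the strain and day in the labels. Each pair of groups was fitted on its 6 libraries over the whole table with edgeR 4.0.16 in R 4.3.3 (filterByExpr, TMM, quasi-likelihood test), with calls at an adjusted p (Benjamini-Hochberg) under 0.05. Interactions used 12 libraries. The SE is the size of the log2 fold change divided by the root of F. CPM is the reads of a gene over the gene reads of its library, on the usual CPM scale. Summed values and ratios were compared by an exact two-sided permutation test on log2 values, with 20 choices in each of 3 strata (8000 in all) and Benjamini-Hochberg adjustment over 16 tests. Nuclear copies were searched with BLAST 2.17.0. Sequences and gene positions are from the GRCm39 reference. Genes given full statistics were 1 per role, chosen by role, and the members with the largest called rise and fall. mt-Nd3 and Lars2 were described more fully after their values were seen.

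The members and lists were chosen with earlier results of these data known. Alternatives were DESeq2 1.42.0, the likelihood ratio test, other scalings, no filter on low counts, all 27 libraries in 1 model, a fit with a replicate block, and leaving out single libraries. The shares of all genes called that stand beside counts are from the main edgeR fit, and none was set beside the counts of the alternatives. In none of the 18 pairs of groups did every same-numbered pair of libraries have correlated deviations (all over 0.1), so the numbers were not taken to pair libraries. The lowest depth was 26363697 and the median 29700746 reads on genes. Tests were tried on simulated data. Tables were handled in Python 3.11.15 with pandas 2.3.3, numpy 2.4.6 and scipy 1.17.1, and plots drawn with matplotlib 3.10.9.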

Additional observations from a re-analysis of the deposited data

Results flagged for a closer look

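In the early phase, every d15 library was below every d12 library in AKR/J and above every d12 library in Cav1-null for the share of mitochondrial reads and for mt-Rnr1, mt-Rnr2, mt-Co1, mt-Nd6, mt-Cytb and mt-Tp in CPM, without TMM scaling. These values are listed because their libraries moved in opposite directions without overlap. The gene mt-Nd1 and the ratios within the mitochondrial reads were looked at too and did not do so, with mt-Nd1 overlapping between the days in Cav1-null. How many of all genes move this way was not counted. The difference between strains was not tested. The change of the share (d15 minus d12, log2) was −1.33 in AKR/J and 0.32 in Cav1-null, a difference of −1.65. For the rRNA genes the changes were −1.66 and 1.11 for mt-Rnr1 (difference −2.77) and −1.49 and 1.23 for mt-Rnr2 (difference −2.72). For the protein-coding genes they were −1.09 and 0.32 for mt-Co1 (difference −1.41), −1.01 and 0.12 for mt-Nd6 (difference −1.13), and −1.30 and 0.31 for mt-Cytb (difference −1.61). For mt-Tp they were −2.59 and 0.42 (difference −3.01). The erythroid and trophoblast markers that take a higher share in AKR/J d12, and the long nuclear RNAs, which took 0.148% to 0.407% on d12 and 0.5% to 0.674% on d15 in AKR/J, change over these days, and their part was not tested. The erythroid markers of AKR/J took 3.57% to 13.6% on d12 and 0.216% to 0.332% on d15. In Cav1-null they were also lower on d15 (0.456% to 0.554%, then 0.311% to 0.385%) and the long nuclear RNAs higher (0.411% to 0.663%, then 0.714% to 0.79%). The part of these changes was not tested either.

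The splice table, which no comparison above uses, lists 3 junctions on the mitochondrial genome, whose genes have no introns. In mt-Cytb, a gap of 111 bases from 14428 to 14538 had 210 reads over 21 libraries, at most 30 in 1 library (AKR/J d12 replicate 1). Another in mt-Cytb from 15138 to 15168 had 68 reads over 21 libraries, at most 15 (AKR/J d12 replicate 1). A gap in mt-Co1 from 6132 to 6167 had 11 reads, all in C57BL/6J d17 replicate 2.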

How the results depend on the processing

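None of the members called changed direction under the alternatives run. Of 128 counts of called members under the planned settings, 105 stayed within 1.5 times the main count. The counts that moved were as follows. From d12 to d15 in AKR/J the count was 3 of 10 with a replicate block, and in its late phase 5 with the block and 0 with 1 model of all 27 libraries. In the late phase of C57BL/6J it was 9 by DESeq2 and by the likelihood ratio test and 5 with all 27 libraries, in place of 3. In Cav1-null the early count of 2 became 5 by DESeq2, 4 by the likelihood ratio test and by library sizes alone, and 0 with all 27 libraries, as did the late count of 3. Between AKR/J and C57BL/6J it was 1 (lower) on d15 with all 27 libraries and 1 (lower) on d17 with all 27 libraries or no filter, both times mt-Nd3, and for Cav1-null on d12 8 by DESeq2 and 7 by the likelihood ratio test. For the early interaction of AKR/J it was 10 by DESeq2, 8 by the likelihood ratio test, 7 with all 27 libraries and 6 with no filter, and for that of Cav1-null 2 by DESeq2, the likelihood ratio test or no filter. The cause of these moves was not tested. The replicate numbers share only a number between groups, since correlations of their deviations ran from −0.484 to 0.382 with a median of −0.0523, and the block changed no other count by over 1.5 times. With each library left out in turn, the counts ranged from 1 to 10 and 2 to 10 in the early and late phase of AKR/J, 0 to 4 and 0 to 10 in C57BL/6J, and 2 to 4 and 2 to 5 in Cav1-null. They ranged from 0 to 10 (d12) and 0 to 10 (d17) between AKR/J and C57BL/6J, 0 to 2 (d12) and 0 to 6 (d17) between Cav1-null and C57BL/6J, and 0 to 10 (AKR/J early), 0 to 2 (Cav1-null early) and 0 to 7 (Cav1-null late) in the interactions.

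Of the 16 permutation results, 3 passed or failed differently when the median of log2 counts replaced the sum: rRNA for AKR/J minus C57BL/6J (0.47, exact test, adjusted p = 0.0032), tRNA for the late phase (0.22, exact test, adjusted p = 0.131) and tRNA for AKR/J minus C57BL/6J (0.67, exact test, adjusted p = 0.002). With a library left out, rRNA for AKR/J minus C57BL/6J ranged from 0.17 to 0.31, tRNA from 0.37 to 0.54, and mt-Nd6 for Cav1-null minus C57BL/6J from −0.19 to −0.14. The reads on mt-Nd3 and on the tRNA genes other than mt-Tp were too few for most tests, and the cause was not tested.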
